A study of Homo sapiens with 5 samples.

Results

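Immediate early and early response genes were followed after knockdown of AKAP12 in SW480, a human line grown from a colorectal cancer. The 45 genes were taken from a list of rapidly induced transcription factor and feedback genes and looked up by symbol among the 26485 genes of the count files, where all 45 were found. They were read in 3 libraries of AKAP12 knockdown cells and 2 libraries of control cells. Cells of both groups expressed dCas9-KRAB, in which a Cas9 that cannot cut carries a domain that silences the promoter it is guided to. Per the labels' protocols, they were transduced with guide RNAs against AKAP12 or with control guide RNAs, and RNA was taken 48 hours after seeding. The titles call the same groups shAKAP12 and shControl, so the labels name different silencing methods. Whether replicates came from separate cultures is not given, and p-values then measure only the spread between these libraries, which may be technical. Libraries were made with a 3' end kit that primes on poly(A).

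Immediate early genes are switched on within minutes of a signal, without new protein synthesis, by factors that are already in the cell. Kinase cascades ending in ERK, JNK, p38 and protein kinase A phosphorylate SRF partners of the ternary complex family and CREB, which bind in the promoters of genes such as FOS and EGR1. The products include AP-1 subunits (FOS and JUN families), EGR, NR4A and KLF transcription factors, phosphatases and kinases that damp the signal, and ZFP36 and BTG proteins that promote mRNA decay. The mRNAs are short lived, in many cases because AU-rich elements in the 3' UTR recruit ZFP36 proteins and the deadenylase.

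AKAP12, a scaffold for protein kinases A and C, had 1159, 1063 and 1008 CPM (reads relative to the library total, scaled with TMM factors) in the knockdown libraries, against 2870 and 1550 CPM in control 1 and control 2. All knockdown libraries were below both controls, and the log2 fold change, given as knockdown over control throughout, was -1.04 (SE 0.31). Its edgeR adjusted p of 0.0513 was just outside the threshold of 0.05. It was below the threshold by DESeq2 (adjusted p = 0.0114), by limma-voom (0.0453), with no filter (0.0310) and with the stricter filter (0.0481), and the authors' deposited table gave 0.0124. It stayed above the threshold with RLE scaling, by library size only and with any knockdown library left out. The value was -0.52 without control 1 and -1.42 without control 2. Total counts were 6890868 to 9311026 in the knockdown libraries, against 4935096 and 8670141 in the controls. Control 1 stood apart from the other libraries. Over the 43 tested members, Pearson's r of log2 CPM was 0.987 to 0.992 between knockdown libraries and 0.889 between the controls. It was 0.899 to 0.927 between control 2 and the knockdown libraries, and 0.736 to 0.774 between control 1 and the knockdown libraries. By this measure control 2 was closer to the knockdown libraries than to control 1. These r values are a description across genes, which are not independent. Short non-coding RNA genes took 0.645% to 0.934% of knockdown counts, against 8.65% and 1.73% of control counts. The telomerase gene TERT took 0.0451% to 0.249% of knockdown counts, against 7.43% and 3.54% of control counts. With TERT, short RNA and histone genes removed, the member calls were again 11 higher and 3 lower, with a median log2 fold change of 0.72. Summed over 13 colon epithelial markers, the level was 1460 to 1708 CPM of all counts in the knockdown, against 867 and 1576 CPM in the controls. EPCAM, KRT8, KRT18, KRT19 and CDX2 were read in every library, CDX1 in none, and KRT20 in knockdown 3 alone. CLDN3 and CLDN7 were also read in every library, as were CDH1, VIL1, LGALS4 and GPX2, at no more than 6.28 CPM. KRT8 was at 150, 246 and 281 CPM in the knockdown, against 57.1 and 55.3 CPM in the controls. Of 10 tested epithelial markers, 1 was called higher and 1 lower (20%, beside 22.6% of all tested genes). The lists of 9 fibroblast and muscle, 10 blood and 5 endothelial markers were not at 0 either. Their sums were 627 to 771, 111 to 144 and 50.1 to 62.5 CPM in the knockdown, against 406 and 643, 87.7 and 141, and 39.9 and 72.2 CPM in the controls. The part of these in the results was not tested. In bulk RNA, fewer cells of a type and less RNA per cell cannot be told apart.

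Of the 45 members, 43 passed the filter on low counts and 14 of these were called by edgeR. Of the 14, 11 rose and 3 fell. The members called higher were the AP-1 genes JUNB and FOSL1, the orphan nuclear receptor gene NR4A1, KLF2 and KLF10, the mRNA decay genes ZFP36L1 and ZFP36L2, SRF, the phosphatase gene DUSP1, the kinase gene PLK3 and the NF-kB inhibitor gene NFKBIA. Those called lower were the AP-1 genes JUND and FOSL2, and IER3. Over all 14536 tested genes, 22.6% were called, 11.2% higher and 11.4% lower, so the 11 higher members (25.6% of 43) stood above that background and the 3 lower members (6.98%) below it. The median log2 fold change was 0.72 over the tested members, with a range of -1.87 to 3.98, and 0.04 over all tested genes. The knockdown and control libraries did not overlap in 25 members with the knockdown higher and in 5 with it lower, where 31.6% and 28.5% of all tested genes did the same, 60.1% in all. For a single gene, exact permutation of these libraries gives no p smaller than 0.1.

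With any one knockdown library left out, edgeR called 0 members and 0 genes in all, while 15 to 18 members and 3774 to 4109 genes had an unadjusted p under 0.05, and DESeq2 called 9 members higher and 1 or 2 lower in those fits. With library size as the only scaling, which put the median of all tested genes at 0.23, the split was 12 members higher and 1 lower (1668 higher and 982 lower over all tested genes, against 1624 and 1658 with TMM factors). The authors' deposited table gave 15 members higher and 3 lower, IER5, RHOB, PER1 and MYC being the additional ones, among 43 with an adjusted p. Of all genes with an adjusted p in the authors' deposited table, 25.3% were below 0.05.

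**Figure D1:**
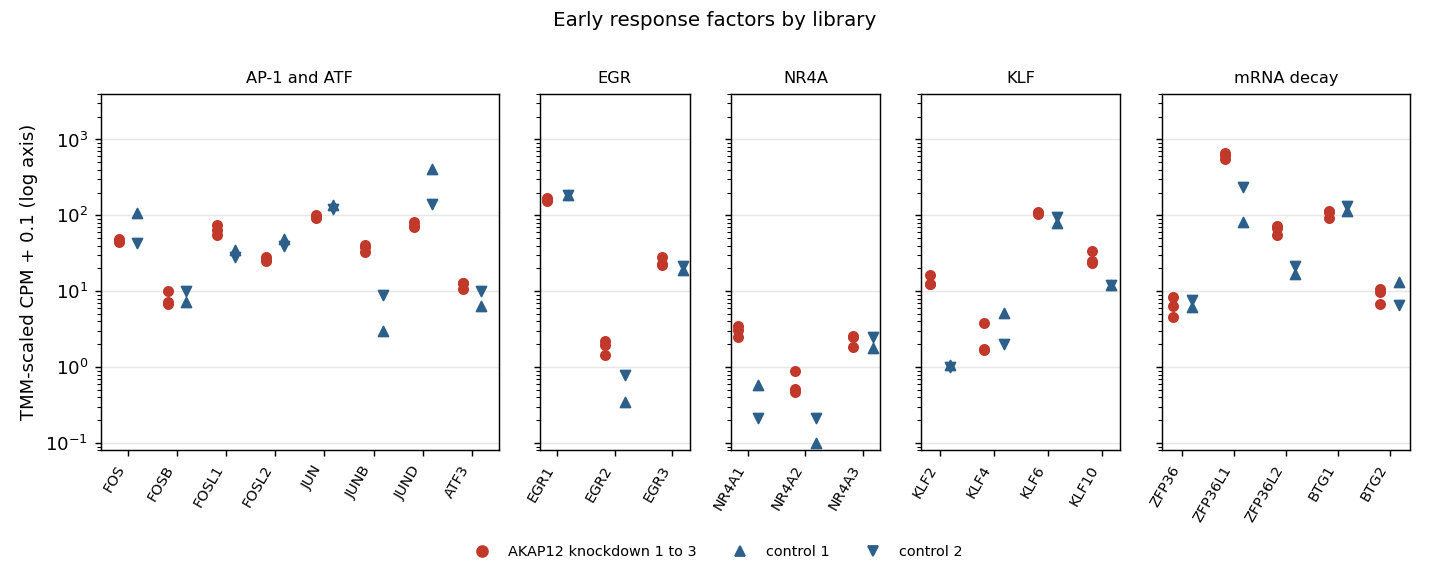
TMM-scaled CPM plus 0.1 (log axis) of each AP-1, EGR, NR4A, KLF and mRNA decay gene, with 1 point per library. The 3 knockdown points of JUNB, FOSL1, NR4A1, KLF2, KLF10, ZFP36L1 and ZFP36L2 lie above both control points, and those of JUND and FOSL2 lie below both. Those of the uncalled ATF3, EGR2, EGR3 and KLF6 and the untested NR4A2 also lie above both, and those of the uncalled JUN and EGR1 below both.

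The AP-1 genes moved in both directions. AP-1 is a dimer of a JUN family protein with a FOS, JUN or ATF family protein. Of 8 tested members of this group, 2 rose, 2 fell and 4 did not pass, beside 11.2% of all tested genes called higher and 11.4% called lower. The group's median log2 fold change was -0.27. JUNB, which often opposes the growth-promoting action of JUN, had 32.8, 38.6 and 40.6 CPM in the knockdown, against 2.94 and 8.83 CPM in the controls. The groups were far apart (log2 fold change 2.59, SE 0.44, edgeR adjusted p = 0.0177), and the value was 2.08 without control 1 and 3.65 without control 2. JUND, an AP-1 subunit present in many resting cells, had 69.2, 82.2 and 71.6 CPM in the knockdown, against 406 and 140 CPM in the controls. It fell by 1.87 on the log2 scale (SE 0.41, edgeR adjusted p = 0.0267). The value was -0.91 without control 1, the library in which JUND was highest, and -2.46 without control 2.

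FOSL1, which encodes FRA1, had 54.4, 63.4 and 75.6 CPM in the knockdown, against 35.03 and 28.2 CPM in the controls, a 2.04-fold rise (log2 fold change 1.03, SE 0.24, edgeR adjusted p = 0.0294). FOSL2, which encodes FRA2, had 28.4, 25.98 and 24.96 CPM in the knockdown, against 49.0 and 39.1 CPM in the controls (log2 fold change -0.73, SE 0.21, edgeR adjusted p = 0.0481). The groups did not overlap for either gene, but the FOSL2 call was lost by limma-voom (adjusted p = 0.0541), without a filter (edgeR adjusted p = 0.0761) and by library size only (edgeR adjusted p = 0.104). FOS itself had 44.5, 45.4 and 49.3 CPM in the knockdown, against 107 and 43.4 CPM in the controls. Control 2 lay below all knockdown libraries and control 1 far above them, so the groups overlapped. The log2 fold change was -0.68 (edgeR adjusted p = 0.201) and 0.10 without control 1.

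The other AP-1 group members did not pass. JUN had 90.9, 102 and 94.4 CPM in the knockdown, against 136 and 121 CPM in the controls (log2 fold change -0.42, edgeR adjusted p = 0.134). FOSB had 7.17, 6.70 and 9.84 CPM in the knockdown, against 7.10 and 9.86 CPM in the controls, and the ranges nearly coincided. Its log2 fold change of -0.12 (edgeR adjusted p = 0.807) was 0.06 by library size only. ATF3, a stress-induced CREB family member that pairs with JUN proteins, had 10.5, 12.9 and 12.9 CPM in the knockdown, against 6.37 and 10.1 CPM in the controls (log2 fold change 0.53, edgeR adjusted p = 0.238).

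The promoters of JUNB and JUND are shown because these paralogs, which both lie on chromosome 19, had calls of opposite sign. Each sequence covers 250 bases before to 50 bases after the start of the gene (RefSeq, GRCh38.p14), for JUNB chr19:12791236-12791535 on the plus strand and for JUND chr19:18281573-18281872 on the minus strand. Capitals mark TGACG, the core of the cAMP response element, on either strand, the full element TGACGTCA, which contains that core on both strands, and the TATA box letters TATAAA on the gene strand.
JUNB: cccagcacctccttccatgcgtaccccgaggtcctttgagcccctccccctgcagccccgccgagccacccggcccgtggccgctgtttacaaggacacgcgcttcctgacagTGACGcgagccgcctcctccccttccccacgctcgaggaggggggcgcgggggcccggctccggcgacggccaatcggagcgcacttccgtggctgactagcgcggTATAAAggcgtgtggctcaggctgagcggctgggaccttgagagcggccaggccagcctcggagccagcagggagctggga
JUND: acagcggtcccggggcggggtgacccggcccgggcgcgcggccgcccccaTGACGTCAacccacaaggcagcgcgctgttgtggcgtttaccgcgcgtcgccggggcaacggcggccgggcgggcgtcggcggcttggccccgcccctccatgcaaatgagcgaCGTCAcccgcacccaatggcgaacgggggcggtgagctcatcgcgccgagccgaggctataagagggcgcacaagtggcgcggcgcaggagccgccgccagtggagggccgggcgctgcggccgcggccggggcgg

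The EGR genes encode zinc finger factors that bind GC-rich sites. None of the 3 tested members passed the threshold, against 22.6% of all tested genes. By edgeR, 1 of them (EGR2) had an unadjusted p under 0.05, DESeq2 and limma-voom also called 0, and the median log2 fold change was 0.25. EGR1 had 160, 170 and 155 CPM in the knockdown, against 184 and 185 CPM in the controls. The knockdown libraries were all slightly below the controls (log2 fold change -0.19, SE 0.18, edgeR adjusted p = 0.4502), a difference that was 0.02 by library size only. EGR3 had 22.8, 21.97 and 27.9 CPM in the knockdown, against 19.1 and 21.6 CPM in the controls (log2 fold change 0.25, edgeR adjusted p = 0.446). EGR2 rested on few reads, 13, 16 and 15 in the knockdown, against 1 and 6 in the controls. Its ratio was 3.17 with an exact 95% counting interval of 1.42 to 8.35 (edgeR adjusted p = 0.1005). It was 2.52 (1.07 to 7.24) with control 1 left out and 7.08 (1.21 to 286) with control 2 left out.

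NR4A genes encode orphan nuclear receptors that act without a known ligand. NR4A1 (NUR77) had 33, 18 and 24 reads in the knockdown, against 2 and 1 reads in the controls, that is 3.38, 2.41 and 2.95 CPM against 0.490 and 0.115 CPM. The groups were far apart, with a ratio of 12.6 and an exact 95% counting interval of 4.15 to 62.6 (edgeR adjusted p = 0.0243). Leaving out control 1 gave a ratio of 25.8 (4.49 to 1032), and leaving out control 2 gave 6.03 (1.61 to 50.7). NR4A3 had 1.74, 2.41 and 2.46 CPM in the knockdown, against 1.71 and 2.41 CPM in the controls, and the ranges overlapped (log2 fold change 0.06, edgeR adjusted p = 0.940). The value was -0.14 without control 1. NR4A2 failed the filter with 4, 6 and 3 reads in the knockdown, against 0 and 1 reads in the controls, a ratio of 6.56 whose counting interval of 0.985 to 279 included no difference.

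The KLF genes encode zinc finger factors of the Krüppel type. Of 4 tested, 2 rose, 0 fell and 2 did not pass, where 11.2% of all tested genes rose. The median log2 fold change was 0.75. KLF2, known as a factor of quiescence and of the endothelial response to flow, had 120, 120 and 100 reads in the knockdown, against 4 and 8 reads in the controls. In scaled units these were 12.3, 16.1 and 12.3 CPM against 0.980 and 0.918 CPM. It was 14.2-fold higher (log2 fold change 3.82, SE 0.38, edgeR adjusted p = 0.0124), with almost the same value without control 1 (3.86) and without control 2 (3.76). KLF10, a gene induced early by TGF-beta, had 23.5, 25.05 and 33.9 CPM in the knockdown, against 12.003 and 12.04 CPM in the controls. The controls coincided and lay below all knockdown libraries, and the 2.29-fold rise (SE 0.26 on the log2 scale, edgeR adjusted p = 0.0269) was the same without either control, at a log2 fold change of 1.19. KLF6 had 107, 110 and 106 CPM in the knockdown, against 79.4 and 94.7 CPM in the controls (log2 fold change 0.30, edgeR adjusted p = 0.268). KLF4, a factor of epithelial differentiation in the gut, had 1.64, 3.75 and 1.598 CPM in the knockdown, against 5.14 and 1.95 CPM in the controls. These overlapped (log2 fold change -0.55, edgeR adjusted p = 0.547), and the value was 0.24 without control 1.

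The mRNA decay group held called and uncalled paralogs of the ZFP36 family, whose proteins bind AU-rich elements and bring in the CCR4-NOT deadenylase. Of 5 tested members, 2 rose, 0 fell and 3 did not pass, where 11.2% of all tested genes rose. The group's median was -0.11 on the log2 scale. ZFP36L1 had 546, 622 and 664 CPM in the knockdown, against 81.3 and 238 CPM in the controls, a 3.81-fold rise (log2 fold change 1.93, SE 0.45, edgeR adjusted p = 0.0302). It was 1.36 without control 1 and 2.90 without control 2. ZFP36L2 had 54.6, 68.7 and 73.2 CPM in the knockdown, against 16.7 and 21.6 CPM in the controls, a 3.40-fold rise (log2 fold change 1.77, SE 0.25, edgeR adjusted p = 0.0141). ZFP36, which encodes tristetraprolin, had 8.19, 6.29 and 4.43 CPM in the knockdown, against 6.12 and 7.57 CPM in the controls. The groups overlapped (log2 fold change -0.13, edgeR adjusted p = 0.820), and the value was 0.06 by library size only.

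BTG1 and BTG2 encode antiproliferative proteins that bind the deadenylase CNOT7. BTG1 had 115, 112 and 92.7 CPM in the knockdown, against 115 and 131 CPM in the controls (log2 fold change -0.21, edgeR adjusted p = 0.469). BTG2 had 6.76, 10.6 and 9.59 CPM in the knockdown, against 13.2 and 6.54 CPM in the controls. Its knockdown values lay between those of the controls (log2 fold change -0.11, edgeR adjusted p = 0.855). The value was 0.13 by library size only and 0.45 without control 1. BTG1 shares exon sequence with C12orf79 on the same strand, so its count is uncertain.

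**Figure D2:**
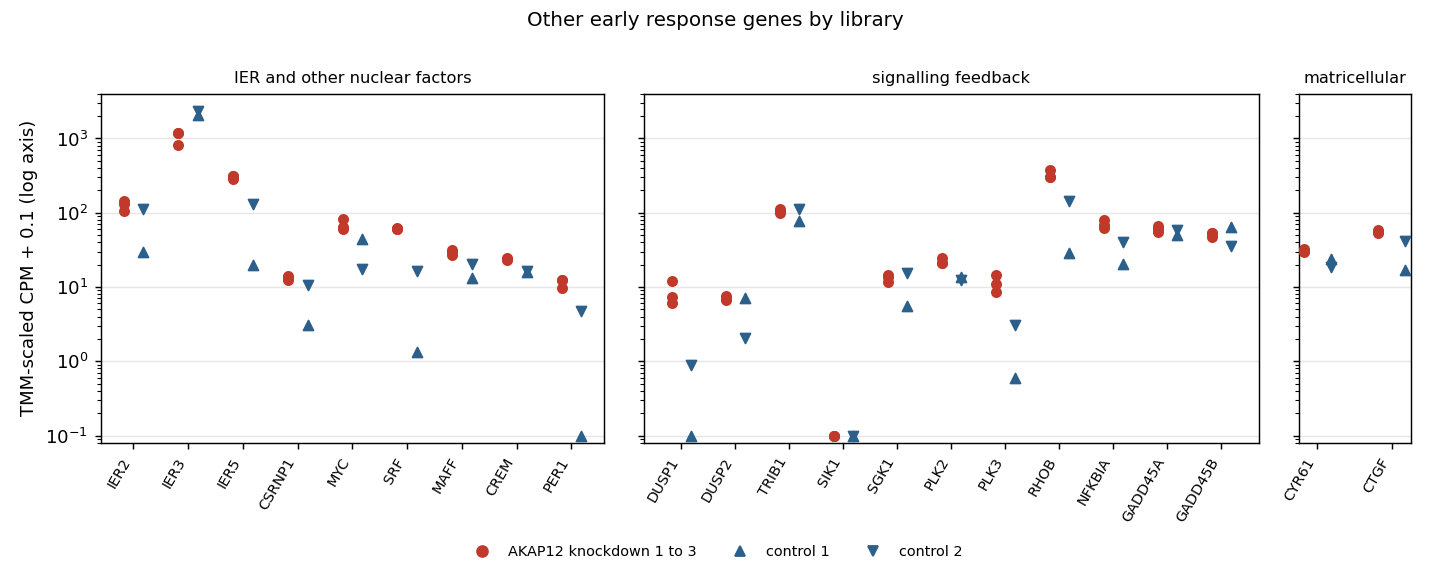
TMM-scaled CPM plus 0.1 (log axis) of the remaining members, with 1 point per library. SRF, DUSP1, PLK3 and NFKBIA have all knockdown points above both controls, IER3 has them below, and for IER5, RHOB and SRF control 1 lies well below control 2. The uncalled IER5, CSRNP1, MYC, MAFF, CREM, PER1, PLK2, RHOB, CYR61 and CTGF also have all knockdown points above both controls.

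Among the IER genes and other nuclear factors, 1 of 9 tested members rose, 1 fell and 7 did not pass. The share called, 22.2%, was close to the 22.6% of all tested genes. SRF, which binds the CArG boxes of FOS, EGR1 and its own promoter, had 60.8, 60.8 and 62.9 CPM in the knockdown, against 1.225 and 16.2 CPM in the controls. The knockdown libraries were close to each other and the controls far apart, at 5 and 141 reads. The rise was 6.61-fold (log2 fold change 2.72, SE 0.76, edgeR adjusted p = 0.0456), with 1.93 without control 1 and 5.63 without control 2, and the call was lost by library size only (edgeR adjusted p = 0.0648). IER3, which encodes a regulator of cell survival, had 1200, 1169 and 823 CPM in the knockdown, against 2096 and 2323 CPM in the controls. It fell by 1.05 on the log2 scale (SE 0.26, edgeR adjusted p = 0.0335), with -1.12 without control 1 and -0.98 without control 2, and missed the threshold by library size only (edgeR adjusted p = 0.0714). IER3 reads made up 30.1%, 28.4% and 21.6% of all member reads in the knockdown, against 54.95% and 54.5% in the controls. Its annotation spans chromosome 6 and 5 alternate sequences of the build.

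Several nuclear factors had all knockdown libraries above both controls without passing. IER5, a regulator of heat shock factor 1, had 312, 312 and 285 CPM in the knockdown, against 19.6 and 132 CPM in the controls. The gap between the controls was wide, and the log2 fold change of 1.98 (SE 0.70) had an edgeR adjusted p of 0.0801, with DESeq2 (adjusted p = 0.00676) and limma-voom (adjusted p = 0.0407) below the threshold. The IER5 value was 1.20 without control 1 and 3.95 without control 2. MYC, a driver of growth and proliferation, had 59.6, 64.0 and 81.5 CPM in the knockdown, against 44.8 and 17.4 CPM in the controls (log2 fold change 1.15, edgeR adjusted p = 0.0813, and 0.0455 by DESeq2). Here control 2 was the lower control, and the value was 1.97 without control 1 and 0.60 without control 2. PER1, a clock gene with an early response to cAMP, had 95, 93 and 100 reads in the knockdown, against 0 and 41 reads in the controls. Its log2 fold change was 2.07 (edgeR adjusted p = 0.113, and 0.0357 by DESeq2) and 1.28 without control 1. With control 2 left out, the remaining control held 0 reads, and with 3 reads in their place PER1 was at least 15.4-fold higher. MAFF, a small MAF protein, and CREM, a cAMP-responsive modulator, were at 0.78 and 0.55 (edgeR adjusted p = 0.0723 and 0.0977). CSRNP1, a nuclear protein induced by AXIN1, was at 0.88 (edgeR adjusted p = 0.211) and 0.31 without control 1. IER2 had 144, 131 and 104 CPM in the knockdown, against 29.1 and 113 CPM in the controls, and its groups overlapped (log2 fold change 0.82, edgeR adjusted p = 0.273).

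The promoters of SRF (chr6:43171019-43171318, plus strand) and EGR1 (chr5:138465229-138465528, plus strand) are shown because both hold a pair of CArG boxes, while SRF was called higher and EGR1 was not called. Capitals mark CArG boxes, TGACG on either strand and the EGR site GCGNGGGCG on either strand.
SRF: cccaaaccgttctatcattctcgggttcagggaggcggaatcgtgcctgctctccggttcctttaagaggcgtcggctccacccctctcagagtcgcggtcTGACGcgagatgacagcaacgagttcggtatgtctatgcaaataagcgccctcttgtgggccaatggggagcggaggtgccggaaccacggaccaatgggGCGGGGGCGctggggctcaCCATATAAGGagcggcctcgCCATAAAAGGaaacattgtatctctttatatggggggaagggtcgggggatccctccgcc
EGR1: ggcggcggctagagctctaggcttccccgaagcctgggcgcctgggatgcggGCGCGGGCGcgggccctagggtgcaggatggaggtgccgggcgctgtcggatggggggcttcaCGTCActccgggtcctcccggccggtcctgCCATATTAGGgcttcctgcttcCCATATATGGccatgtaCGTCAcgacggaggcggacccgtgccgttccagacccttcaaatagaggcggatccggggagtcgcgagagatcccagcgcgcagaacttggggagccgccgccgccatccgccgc

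In the signalling feedback group 3 of 10 tested members rose, 0 fell and 7 did not pass, where 11.2% of all tested genes rose and 11.4% fell. DUSP1 encodes a nuclear phosphatase that inactivates p38, JNK and ERK. It had 70, 45 and 97 reads in the knockdown, against 0 and 7 reads in the controls, which is 7.17, 6.03 and 11.9 CPM against 0 and 0.803 CPM. The ratio of reads was 15.3 with an exact 95% counting interval of 7.29 to 38.5, and the edgeR adjusted p was 0.0215. Without control 1 the ratio was 10.4 (4.96 to 26.2), and with control 2 left out and 3 reads set for control 1 DUSP1 was at least 11.4-fold higher. PLK3, a stress-activated polo-like kinase, had 10.7, 8.44 and 14.3 CPM in the knockdown, against 0.490 and 2.98 CPM in the controls (log2 fold change 2.50, SE 0.60, edgeR adjusted p = 0.0321). The value was 1.90 without control 1, and without control 2 the ratio was 22.9 with a counting interval of 6.27 to 190, from 2 reads. PLK3 exons overlap TCTEX1D4 on the opposite strand, and without strand in the counting their reads cannot be told apart. NFKBIA, which encodes the inhibitor that holds NF-kB in the cytoplasm, had 67.7, 78.8 and 63.1 CPM in the knockdown, against 20.1 and 39.9 CPM in the controls. It was 2.30-fold higher (log2 fold change 1.20, SE 0.32, edgeR adjusted p = 0.0399), with 0.81 without control 1, 1.79 without control 2 and an edgeR adjusted p of 0.0552 by library size only.

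RHOB, an endosomal small GTPase with an early response to growth factors, had 305, 299 and 370 CPM in the knockdown, against 28.4 and 143 CPM in the controls. All knockdown libraries were above both controls, but the edgeR adjusted p was 0.0640 (log2 fold change 1.91, SE 0.62), against 0.00405 by DESeq2. The RHOB value was 1.18 without control 1 and 3.51 without control 2. PLK2 had 20.9, 24.8 and 20.8 CPM in the knockdown, against 13.5 and 12.2 CPM in the controls, and the groups did not overlap (log2 fold change 0.79, edgeR adjusted p = 0.0512). PLK2 was below the threshold by library size only (0.0368) and with the stricter filter (0.0494). The remaining tested members of the group had overlapping libraries. They were DUSP2 at 0.72, SGK1 at 0.30, the pseudokinase gene TRIB1 at 0.16, and the stress genes GADD45A at 0.15 and GADD45B at 0.05 (edgeR adjusted p from 0.353 to 0.911). SGK1 and TRIB1 were at -0.22 and -0.09 without control 1. DUSP2 and GADD45B were at -0.02 and -0.34 without control 2, and GADD45B was at -0.0036 with RLE scaling. SIK1, a salt-inducible kinase gene, had 0 reads in every library, which allows up to 0.322 to 0.435 CPM of all counts in the knockdown libraries and 0.346 to 0.608 CPM in the controls. The annotation gives SIK1 at 2 places on chromosome 21. Whether reads that fit both places were counted was not checked, and if they were not, the 0 reads set no limit on its level. The matricellular genes CYR61 and CTGF, targets of SRF and YAP, were at 0.55 and 0.91 with all knockdown libraries above both controls (edgeR adjusted p = 0.109 and 0.112).

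**Figure D3:**
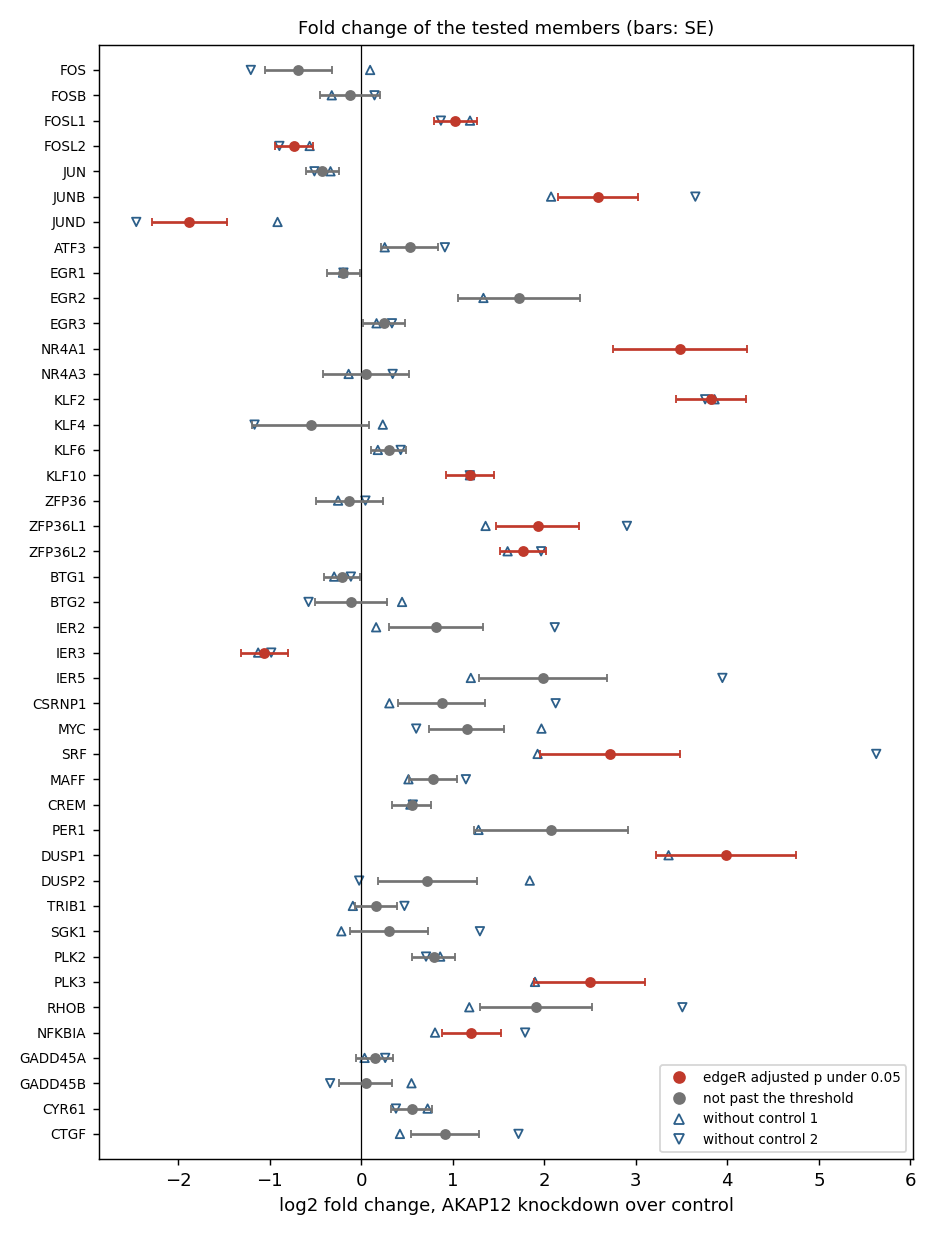
Log2 fold change (knockdown over control, bars show SE) of the 43 tested members, red where the edgeR adjusted p was under 0.05. Open triangles give the value without control 1 or control 2 and are left out where the remaining control held 3 reads or fewer, and all red points keep their side of 0 in the triangles shown.

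Where the groups did not overlap, control 2 was mostly the control nearer to the knockdown libraries, in the members as over all tested genes. In 19 of 43 tested members control 1 was lowest, control 2 next and all knockdown libraries highest, an order found in 24.3% of all tested genes and in 44.2% of the members. The reverse order, with control 1 highest and all knockdown libraries lowest, was found in 3 members and in 3354 of 14536 tested genes. Control 1 was below control 2 in 67.4% of members and in 51.6% of all tested genes. Control 1 lay between control 2 and the knockdown libraries in 6 members with the knockdown higher and 2 with it lower. Over all tested genes it did so in 1059 and 785, where control 2 lay between in 3526 and 3354. The middle place of control 2 was therefore not particular to the members. Of the 14 called members, 10 had control 2 between control 1 and the knockdown libraries. The exceptions were NR4A1, KLF2, FOSL1 and IER3, and for KLF10 the controls were nearly equal. Control 1 also had the smallest total count and the largest share of short RNA reads, and the part of these differences in the results was not tested.

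**Figure D4:**
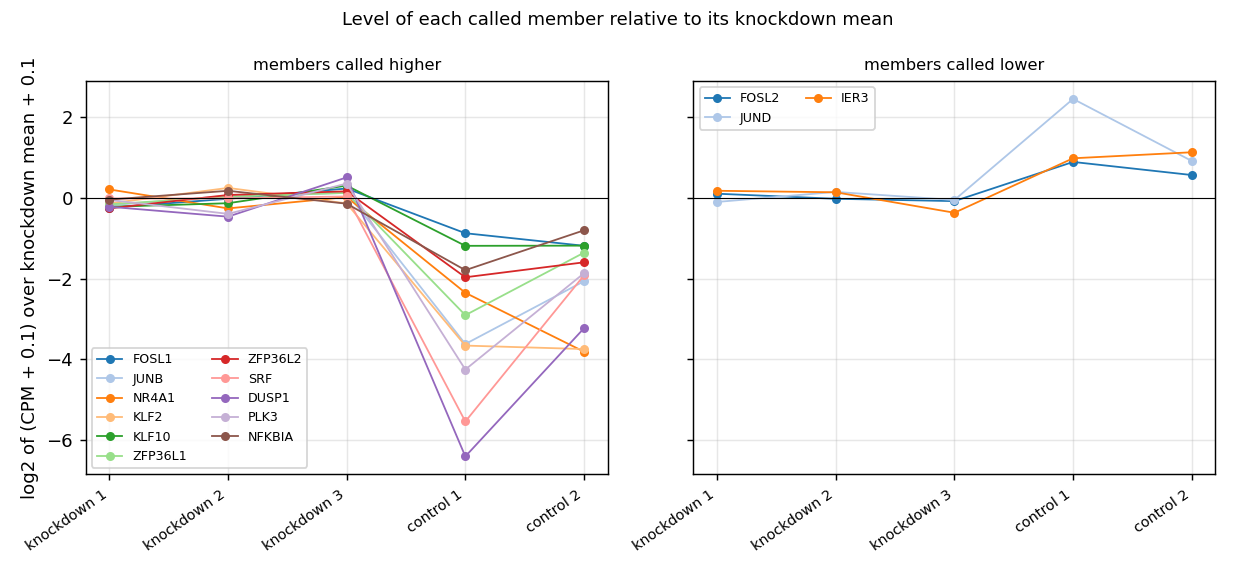
Level in each library relative to the knockdown mean of the same gene, as log2 of CPM plus 0.1, for the 11 members called higher and the 3 called lower. Lines join the values of a gene, and control 1 departs further than control 2 for most genes, with NR4A1, KLF2, FOSL1 and IER3 as exceptions and KLF10 nearly equal.

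The promoters of KLF2 (chr19:16324576-16324875, plus strand) and DUSP1 (chr5:172771146-172771445, minus strand) belong to the called members with the largest fitted rises. Capitals mark the EGR site GCGNGGGCG on either strand in KLF2. In DUSP1 they mark TGACG on either strand, the full cAMP response element TGACGTCA and the TATA box letters.
KLF2: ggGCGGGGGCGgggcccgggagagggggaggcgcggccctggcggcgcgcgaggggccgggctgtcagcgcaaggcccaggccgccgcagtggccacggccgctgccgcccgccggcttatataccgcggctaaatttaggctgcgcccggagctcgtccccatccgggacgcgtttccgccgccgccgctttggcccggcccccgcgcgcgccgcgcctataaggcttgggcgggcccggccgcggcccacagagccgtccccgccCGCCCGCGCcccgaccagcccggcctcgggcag
DUSP1: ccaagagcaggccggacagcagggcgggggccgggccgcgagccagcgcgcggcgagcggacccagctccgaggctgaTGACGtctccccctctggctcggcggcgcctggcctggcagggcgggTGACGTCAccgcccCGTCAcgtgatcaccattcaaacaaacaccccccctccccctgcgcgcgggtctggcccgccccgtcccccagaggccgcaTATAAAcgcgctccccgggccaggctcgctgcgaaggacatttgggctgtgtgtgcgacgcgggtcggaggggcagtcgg

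Promoter sequences were matched for 34 of the 45 members. Only the first start listed for each was used, so a site near another start of the gene was not read. Windows of some members, such as CSRNP1, lay outside the annotated span of the gene. The core TGACG, on either strand and including its copies in the full element, was present in 19 of these (55.9%), against 24.5% of all 34943 promoters of the same length. The full element TGACGTCA was in 3 (8.82%, against 1.84% of all promoters), those of JUND, DUSP1 and MAFF. The EGR site was in 9 (26.5%, against 9.41%), a CArG box in 2 (5.88%, against 1.30%) and TATAAA on the gene strand in 6 (17.6%, against 7.35%). The AP-1 site TGANTCA, read on both strands, was in 1 (2.94%, against 7.72%). The NF-kB site, also on both strands, was in 1, that of NFKBIA itself (2.94%, against 1.91%). The 34943 promoters were not limited to genes read here and may hold more than 1 start per gene. Median GC content was 66.5% in promoters of members called higher, 72.8% in those called lower and 66.7% in those not called. It was not compared with that of all promoters. The part of GC content and of expression in the differences from all promoters was not tested. By call, the core TGACG was in 4 of 8 promoters of members called higher, in both of those called lower and in 12 of 23 of those not called. The EGR site was in 2 of 8, 0 of 2 and 6 of 23 in the same order. A match describes these letters only.

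The members were short genes more often than other genes, and their 3' UTRs held AU-rich motifs more often. JUN, JUNB, JUND, IER5 and RHOB were annotated with 1 exon each. The span from start to end was under 10 kb in 34 of 44 members at 1 locus (77.3%), against 27.1% of 17032 genes with at least 10 reads in all. Of 44 members with a 3' UTR in GENCODE release 29, 37 held at least 2 copies of the pentamer ATTTA (84.1%, against 52.5% of 14209 genes). Median 3' UTR lengths were 1178 and 1073 bases. Per kb of 3' UTR the pentamer was nearly as frequent in all these genes, at 2.51 copies in the members against 2.27. The heptamer TATTTAT, the core recognised by ZFP36 proteins, was in 30 (68.2%, against 32.4%), at 0.847 copies per kb against 0.329. It was in 8 of 11 members called higher, in 3 of 3 called lower and in 18 of 28 not called. Stretches of 30 bases with the heptamer in capitals are shown for called members of each direction and for FOS, the textbook example.
DUSP1: aggggctcgagagggctggtcctTATTTAT
ZFP36L1: agcttatttaacttatcaaaacgTATTTAT
IER3: tgctcctaattaaTATTTATatgTATTTAT
FOS: aacgttttattgtgtttttaattTATTTAT

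**Figure D5:**
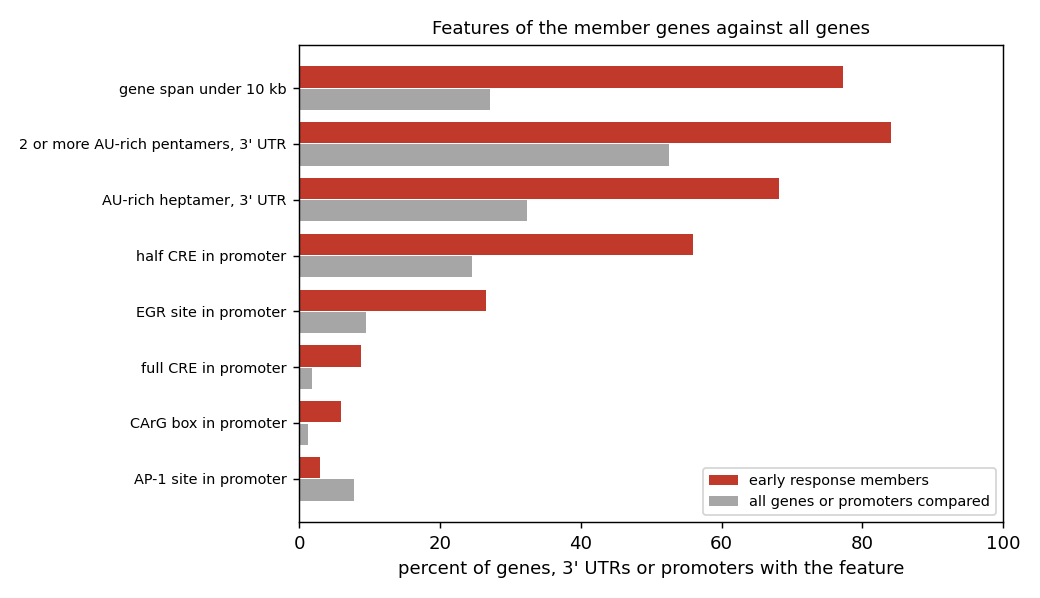
Percent of early response members (red) and of all genes, 3' UTRs or promoters compared (grey) with each feature. The grey promoters, unlike the grey genes and 3' UTRs, were not limited to genes read here. The red value is above the grey for short gene span (77.3% against 27.1%), the AU-rich heptamer (68.2% against 32.4%) and the cAMP response core (55.9% against 24.5%), and the AP-1 site rests on 1 member promoter.

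Other genes of the same pathways were read from lists by role, against the background of 22.6% called. In the ERK cascade 4 of 23 tested genes rose and 2 fell. NRAS had 34.9, 40.0 and 46.1 CPM in the knockdown, against 4.90 and 9.40 CPM in the controls (log2 fold change 2.45, edgeR adjusted p = 0.0140). MAP2K1, the kinase MEK1, rose by 1.61 on the log2 scale (edgeR adjusted p = 0.0163), whereas RPS6KA1, the ERK-activated kinase RSK1, was at -1.25 (edgeR adjusted p = 0.0218) and HRAS at -0.88 (edgeR adjusted p = 0.0332, and 0.0537 by library size only). Among 14 feedback inhibitors of the cascade 2 rose and 1 fell. The ERK phosphatase gene DUSP7 was at 2.98, the RAF inhibitor gene PEBP1 at 1.15 and the RAS inactivator gene NF1 at -0.70 (edgeR adjusted p = 0.0181, 0.0470 and 0.0340). PEBP1 (0.0625) and NF1 (0.102) missed the threshold by library size only, and NF1 also without a filter (0.0617). In the JNK and p38 cascade 1 of 19 rose, the TAK1 gene MAP3K7 at 1.42, and 2 fell, MAPK12 at -1.31 and the p38 target kinase gene MAPKAPK2 at -0.91 (edgeR adjusted p = 0.0158, 0.0257 and 0.0327). MAPKAPK2 was at an adjusted p of 0.0548 by library size only.

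Of 14 genes on a list of SRF partners, CREB factors and other factors such as MEF2D, 3 rose and 1 fell. The ternary complex factor gene ELK1 had 17.2, 20.5 and 18.7 CPM in the knockdown, against 5.14 and 2.87 CPM in the controls (log2 fold change 2.28, edgeR adjusted p = 0.0153). The CREB coactivator gene CRTC3 was at 1.26 and MEF2D at 2.78, while CRTC1 was at -1.15 (edgeR adjusted p = 0.0329, 0.0344 and 0.0300), and CRTC1 missed the threshold by library size only (0.0600). MEF2D had 13.7, 11.3 and 19.2 CPM in the knockdown, against 0.245 and 3.44 CPM in the controls, and was at 2.09 without control 1. Among 26 deadenylation and decapping genes 2 rose and 2 fell, with CNOT4 at 1.41 and PAN3 at 1.04, and with the deadenylase gene CNOT7 at -0.86 and CNOT3 at -1.05 (edgeR adjusted p from 0.0235 to 0.0316). By library size only CNOT7 and CNOT3 were at adjusted p values of 0.0550 and 0.0534. Of 9 genes for AU-rich element binding proteins 1 rose, ELAVL1, which encodes the mRNA-stabilising protein HuR, with 98.7, 99.0 and 134 CPM in the knockdown, against 32.1 and 42.2 CPM in the controls (log2 fold change 1.57, edgeR adjusted p = 0.0167).

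A list of 30 further tested early response genes had 10 higher and 1 lower, that is 33.3% and 3.33%, beside 25.6% and 6.98% among the members and 11.2% and 11.4% over all tested genes. Like the members, this list was chosen with earlier results of these data known, so it is not an independent repeat of their split. The urokinase receptor gene PLAUR was at 2.38, the Notch target gene HES1 at 1.79 and the insulin receptor substrate gene IRS2 at 1.46 (edgeR adjusted p = 0.0131, 0.0136 and 0.0163). The gene that fell was HBEGF, an EGF receptor ligand, with 5.63, 6.96 and 7.38 CPM in the knockdown, against 28.4 and 16.1 CPM in the controls (log2 fold change -1.73, edgeR adjusted p = 0.0208). Among 13 partners and corepressors of AP-1 and EGR proteins 1 rose and 4 fell. MAFG, a small MAF partner, was at 2.27 (edgeR adjusted p = 0.0158). The AP-1 repressor gene JDP2 had 27.1, 26.8 and 20.3 CPM in the knockdown, against 92.6 and 61.5 CPM in the controls (log2 fold change -1.63, edgeR adjusted p = 0.0163). The EGR corepressor gene NAB1 was at -1.31 and ATF4 at -1.01 (edgeR adjusted p = 0.0245 and 0.0279), and ATF4 was at an adjusted p of 0.0742 by library size only.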

How the data were processed

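Poly(A) 3' end libraries from 3 AKAP12 knockdown and 2 control samples were used. The deposited values were raw read counts per gene, made by the authors with featureCounts 1.6.2 over exons by gene, where a read over more than one gene counts for all of them and strand is not used, per the file headers. Alignment to hg38 with STAR 2.7 and testing with DESeq2 1.22 are named in the submitters' processing notes. The authors' deposited comparison table holds log2 fold changes with standard errors, a mean signal over samples, a test score and p-values. It does not state its direction, which was read from its correlation of 0.999 with the fold changes computed here over 14536 genes.

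Genes were kept with edgeR's filter at a minimum count of 10, scaled with TMM factors and tested with edgeR 4.0.16 (quasi-likelihood test, R 4.3.3) over all 5 libraries, with Benjamini-Hochberg adjustment over all tested genes and a threshold of 0.05. The script was tested on simulated data. Alternatives were DESeq2 1.42.0, limma-voom (limma 3.58.1), a stricter filter (5 CPM in 2 libraries) or none, scaling by RLE or by library size only, removal of TERT, short RNA and histone genes, a replicate block and leaving out each library. DESeq2 with each knockdown library left out was chosen after seeing the data. Ratios of few reads carry exact 95% intervals, and the floor was 3 reads. These cover counting error only. The members and lists were chosen with earlier results of these data known. Named were AKAP12, all members, and up to 4 called genes with the smallest p of each context list. Promoters (250 bases before to 50 after a start, the first listed for each member) came from RefSeq and 3' UTRs from GENCODE.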

Additional observations from a re-analysis of the deposited data

How the results depend on the processing

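Few control reads limited the precision for NR4A1, EGR2, DUSP1 and PLK3. By library size only, 982 genes and 1 member were called lower, with 1 AP-1 member lower, as also by limma-voom and with no filter. The median of the members was 0.71 with DESeq2, 0.77 with limma-voom, 0.67 with RLE scaling, 0.95 by library size only, 0.79 with no filter and 0.71 with the stricter filter. The stricter filter left 39 members tested and no NR4A gene among them, so NR4A1 had no call there. Leaving out each library in turn gave 0 (without any knockdown library) to 4625 genes higher and 0 to 4186 lower, 0 to 25 members higher and 0 to 5 lower, and medians of 0.52 to 0.72. The counts above those with all libraries came from fits with 1 control left, which is assumed to vary like the knockdown libraries. The AP-1 group then had 0 to 3 higher and 0 to 4 lower, NR4A 0 to 1, KLF 0 to 3 and mRNA decay 0 to 2 higher. DESeq2 without each knockdown library, chosen after seeing the data, gave 932, 945 and 794 genes higher and 826, 832 and 693 lower, 9 members higher and 1 to 2 lower, medians of 0.67, 0.69 and 0.70, 1 AP-1 member in each direction, 0 NR4A members (NR4A1 had no adjusted p without knockdown 1 or 3) and 1 KLF member. Deviations from the group mean had r of -0.0548 and -0.0794 between same-numbered libraries. With 2 controls the deviations of one mirror those of the other. These values therefore cannot show whether same-numbered libraries were paired, which the labels do not give. The replicate block gave 185 genes higher and 25 lower, 2 members higher and 0 lower, a median of 0.77, and 1 AP-1, 0 NR4A, 1 KLF and 0 mRNA decay members higher, with 0 AP-1 lower. Reversed values were all of uncalled members. Leaving out each library in turn gave -1.20 to 0.10 for FOS, -0.32 to 0.15 for FOSB, -0.14 to 0.34 for NR4A3, -1.16 to 0.24 for KLF4, -0.36 to 0.079 for ZFP36, -0.57 to 0.45 for BTG2, -0.021 to 1.84 for DUSP2, -0.090 to 0.47 for TRIB1, -0.22 to 1.30 for SGK1 and -0.34 to 0.55 for GADD45B. By library size only the reversed values were 0.064 for FOSB, 0.017 for EGR1, 0.064 for ZFP36 and 0.13 for BTG2. With limma-voom they were -0.014 for NR4A3 and 0.017 for BTG2, with RLE scaling -0.0036 for GADD45B and with the block 0.069 for ZFP36. By DESeq2 without a knockdown library they were 0.070 for ZFP36, 0.021 for BTG2 and -0.00032 for GADD45B, and NR4A3, which had no adjusted p without knockdown 3, was at -0.017 there. The causes were not tested.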
